A study of Mus musculus with 18 samples.

Results

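The regions described here carried a methylation peak in 8, 9 or 10 of the 18 libraries of a mouse myocardial infarction study. They are called intermediate regions below. The peaks of all libraries were merged wherever they overlapped by at least 1 base, and a merged autosomal region was kept when it overlapped a peak of 8 to 10 libraries. The rule kept 13183 of 148111 autosomal merged regions (8.90%), of which 4905 were found in 8 libraries, 4364 in 9 and 3914 in 10. The libraries came from 12-week-old male C57BL/6JR mice, 3 in each of 6 groups. In 5 groups infarction was made by ligating the left anterior descending coronary artery, and the heart was sampled 10 min after the ligation or after 1, 6, 24 or 72 h. The sham group had the operation, with the thread passed and not tied. Per the labels the samples are myocardial tissue with cardiomyocytes as the cell type, and a list of methylated regions holds no marker by which that could be checked. The labels name each library as its own sample, and the study's design counts 3 mice in a group.

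Methylated DNA immunoprecipitation sequencing (MeDIP-seq) pulls down sheared DNA with an antibody against 5-methylcytosine and reports where such fragments pile up. In mammalian tissue most methylated cytosines stand before a guanine (CpG). Most of the genome has few CpGs, and these are mostly methylated, whereas CpG-rich starts of genes are mostly free of methylation. Starts of many genes used only in germ cells are a known exception: they are CpG-rich and methylated in the tissues of the body. A pull-down depends on how many methylated CpGs a fragment holds, so a region of moderate CpG density can lie close to the limit of detection.

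The intermediate regions lay between the extremes in strength and width, which are values the rule drew on and are given as a description. Their median mean score was 70.39 (middle 50% of regions 65.78 to 76.21), where the score is what the authors deposited with a peak, never below 50 in any list. The medians just outside the rule were 67.91 for the 5437 regions of 7 libraries and 73.29 for the 3529 regions of 11 libraries. Their median width was 1343 bases, against 1273 and 1408 bases for the same neighbours. Regions found in all 18 libraries had a median mean score of 121.7 and a median width of 1961 bases. In every library the peaks in intermediate regions had a lower median score (62.22 to 72.99) than all peaks of that list (69.07 to 75.91).

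Where an intermediate region covered the whole start of a protein-coding gene, the start was CpG-rich in 9 of 85 cases (10.59%), counting a window of 300 bases with at least 20 CpGs as CpG-rich. Inside autosomal regions of any kind it was 31 of 643 windows (4.82%), and 37.10% of all 20085 protein-coding start windows were CpG-rich. It was 7 of 62 windows inside regions found in all 18 libraries, and 1 of 93 inside regions of 1 library. The start of Dazl was among the former and that of Mael was the latter, so such starts were not particular to the intermediate regions. The 9 windows belonged to Dmrtb1, Rad51c, Brdt, Rnf212, Sycp1, Gm33887, Mov10l1, Pramel1 and Tex14. These were singled out after their values had been seen, and no test was made of what they have in common. Dmrtb1 encodes a transcription factor of spermatogonia, Brdt a bromodomain protein of the testis and Sycp1 a protein of the synaptonemal complex, which joins paired chromosomes in meiosis. Mov10l1 encodes an RNA helicase of the piRNA pathway of male germ cells, Tex14 a protein of the bridges between germ cells, and Rnf212 a factor of meiotic crossing over. Rad51c, a recombinational repair gene also used outside germ cells, lies head to head with Tex14, and both starts fell in the same region.

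The start windows of 5 of these genes are printed to show how dense their CpGs are, with that of Actl9, a testis actin-like gene, as a contrast with no CpG. Each runs 5′ to 3′ on the strand of its gene from 250 bases before to 50 bases after an annotated start (RefSeq, GRCm38.p6), and each CpG is in capitals.
Dmrtb1 start, chr4:107683540-107683839, minus strand: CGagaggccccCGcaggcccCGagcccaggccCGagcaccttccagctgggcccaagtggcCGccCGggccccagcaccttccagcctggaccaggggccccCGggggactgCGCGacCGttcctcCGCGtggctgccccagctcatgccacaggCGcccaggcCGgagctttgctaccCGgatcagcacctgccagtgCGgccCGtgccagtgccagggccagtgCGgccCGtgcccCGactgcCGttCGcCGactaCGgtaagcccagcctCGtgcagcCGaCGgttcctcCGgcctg
Brdt start, chr5:107330944-107331243, plus strand: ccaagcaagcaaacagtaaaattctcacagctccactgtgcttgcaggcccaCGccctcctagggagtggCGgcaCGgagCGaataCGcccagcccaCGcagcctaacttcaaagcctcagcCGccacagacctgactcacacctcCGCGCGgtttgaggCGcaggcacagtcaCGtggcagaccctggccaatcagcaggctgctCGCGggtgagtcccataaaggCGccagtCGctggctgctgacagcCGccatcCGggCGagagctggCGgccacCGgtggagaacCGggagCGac
Sycp1 start, chr3:102936051-102936350, minus strand: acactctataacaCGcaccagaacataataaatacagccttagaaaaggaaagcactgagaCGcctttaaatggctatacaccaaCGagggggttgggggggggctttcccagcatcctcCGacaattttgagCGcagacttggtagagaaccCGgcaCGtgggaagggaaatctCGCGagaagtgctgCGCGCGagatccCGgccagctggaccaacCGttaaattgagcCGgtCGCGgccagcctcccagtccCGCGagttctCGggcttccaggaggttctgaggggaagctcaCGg
Mov10l1 start, chr15:88982744-88983043, plus strand: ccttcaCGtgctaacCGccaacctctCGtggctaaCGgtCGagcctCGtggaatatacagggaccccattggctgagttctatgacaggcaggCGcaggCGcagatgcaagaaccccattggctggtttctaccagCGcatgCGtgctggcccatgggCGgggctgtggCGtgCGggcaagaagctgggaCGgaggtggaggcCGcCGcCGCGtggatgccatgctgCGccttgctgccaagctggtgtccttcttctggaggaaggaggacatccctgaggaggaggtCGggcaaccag
Tex14 start, chr11:87404815-87405114, plus strand: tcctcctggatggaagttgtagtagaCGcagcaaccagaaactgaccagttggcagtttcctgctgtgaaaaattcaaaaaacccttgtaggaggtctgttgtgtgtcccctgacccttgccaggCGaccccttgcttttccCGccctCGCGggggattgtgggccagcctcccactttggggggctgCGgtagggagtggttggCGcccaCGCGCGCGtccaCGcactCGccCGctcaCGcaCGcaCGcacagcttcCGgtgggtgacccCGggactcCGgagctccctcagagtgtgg
Actl9 start, chr17:33432649-33432948, plus strand: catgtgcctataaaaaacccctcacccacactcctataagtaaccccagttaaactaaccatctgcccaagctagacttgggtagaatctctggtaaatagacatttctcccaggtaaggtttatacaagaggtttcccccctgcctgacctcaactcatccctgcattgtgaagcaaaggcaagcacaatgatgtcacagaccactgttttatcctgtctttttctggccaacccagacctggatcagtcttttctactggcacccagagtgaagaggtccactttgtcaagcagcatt
The Dmrtb1 window held 28 CpGs, Brdt 23, Sycp1 21, Mov10l1 20, Tex14 20 and Actl9 none (0). The regions around these starts were of ordinary strength, with mean scores of 68.09 ± 14.97 (SD, n = 8 libraries) for Dmrtb1, 72.80 ± 19.47 (n = 10) for Brdt, 63.71 ± 13.76 (n = 8) for Sycp1, 62.82 ± 12.13 (n = 8) for Mov10l1, 70.98 ± 16.14 (n = 9) for Tex14 and Rad51c, and 77.24 ± 21.68 (n = 8) for Actl9.

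At the start of Brdt (region chr5:107330381-107332679) the peak scored 84.63 in sham replicate 2, 70.44 in 10 min replicate 2, 105.5 in 1 h replicate 3, 87.38 and 60.78 in 6 h replicates 2 and 3, 53.61 and 51.44 in 24 h replicates 2 and 3, and 53.94, 63.53 and 96.83 in the 72 h replicates. The other 8 libraries listed no peak there, and every group had at least 1 library with a peak. At the start of Sycp1 (chr3:102935057-102937110) the scores were 53.13 and 67.47 in sham replicates 2 and 3, 62.09 in 10 min replicate 3, 93.06 in 1 h replicate 1, 51.53 in 6 h replicate 2, 53.20 in 24 h replicate 2, and 58.48 and 70.73 in 72 h replicates 1 and 3. Presence at this start was split within every group, sham included. At the start of Dmrtb1 (chr4:107683436-107685722) no sham library had a peak, and each infarct group had 1 or 2 libraries that did, with scores from 53 to 95.32 over the 8 peaks. The region at Mov10l1 (chr15:88982048-88983601) was listed in 3 of 3 libraries of the 24 h group (74.53, 50.82 and 50.30) and in 0 of 3 sham libraries, a pattern met by 0.394% of all autosomal regions. Its other peaks were in 1 h replicate 3 (56.38), 6 h replicates 1 and 2 (52.29 and 74.65) and 72 h replicates 1 and 3 (80.14 and 63.44), and 2 of the 24 h scores were within 1 unit of the lowest score a list can hold.

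MicroRNA genes were also among the sites. MicroRNAs are short RNAs that pair with messenger RNAs mainly through their seed, bases 2 to 8. Intermediate regions touched 27 of 919 autosomal hairpins of the RefSeq table (2.94%), in 21 regions, and regions of any kind touched 164 (17.85%). Of the 27 hairpins, 9 lay in 3 regions of chromosome 12 between positions 109591579 and 109724753. This is within the Dlk1-Dio3 domain, an imprinted cluster whose microRNAs are expressed from the maternal chromosome. Hairpins lie close together there, with 4 in the first of these regions and 4 in the last. The number of all hairpins in that stretch is not given here, so no concentration is read from the 9. The mature sequences below show members of that cluster and miR-218-5p, with the seed in capitals.
miR-127-3p: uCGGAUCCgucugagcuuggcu
miR-433-3p: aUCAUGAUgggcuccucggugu
miR-434-3p: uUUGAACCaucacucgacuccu
miR-370-3p: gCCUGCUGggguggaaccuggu
miR-376a-3p: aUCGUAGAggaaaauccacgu
miR-376b-3p: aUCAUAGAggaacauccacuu
miR-218-5p: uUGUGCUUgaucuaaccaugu
The 48 mature sequences of the 27 hairpins held 47 different seeds. The region with Mir127, Mir433, Mir434 and Mir432 (chr12:109591579-109595072) had 9 peaks. They scored 71.28 in sham replicate 2, 52.94 in 10 min replicate 1, 59.38 and 57.96 in 1 h replicates 2 and 3, 84.65 in 6 h replicate 2, 82.24 and 93.20 in 24 h replicates 2 and 3, and 54.94 and 81.36 in 72 h replicates 1 and 2. The region with Mir370 (chr12:109617739-109618925) had 10 peaks with scores from 51.75 to 141.7, and that with Mir376a, Mir376b, Mir300 and Mir654 (chr12:109723101-109724753) had 9 with scores from 52.84 to 82.36. In none of these 3 regions did a group have 3 of 3 or 0 of 3 libraries with a peak. Mir218-1, which lies within the Slit2 gene, was touched by a region (chr5:48223170-48224345) found in 3 of 3 libraries at 1 h (132.3, 61.87 and 67.79) and in 1 or 2 libraries of each other group.

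Presence was next set against group. The rule treats all libraries alike, so the share of intermediate regions found in a given library was free to follow its group. The 3 sham libraries listed 52.92%, 65.90% and 44.37% of the regions. The 10 min libraries listed 55.97%, 34.58% and 45.20%, the 1 h libraries 45.85%, 45.60% and 46.73%, and the 6 h libraries 43.25%, 53.65% and 31.87%. In the late groups the shares were 50.06%, 54.59% and 48.69% (24 h) and 60.36%, 64.25% and 48.63% (72 h). The sham libraries ranged from 44.37% to 65.90%, and every infarct group overlapped them. The sham mean was 54.40% ± 10.84 (SD, n = 3), and the infarct means, in order of time, were 45.25% ± 10.69, 46.06% ± 0.597, 42.92% ± 10.90, 51.12% ± 3.09 and 57.75% ± 8.13. Groups accounted for 0.371 of the variance between libraries (permutation test with 100000 relabelings, p = 0.289). The differences from sham were -9.15, -8.33, -11.47, -3.28 and 3.35 percentage points from 10 min to 72 h, with p from 0.3 to 0.8 by two-sided exact permutation tests. All 5 were 0.8 after Benjamini-Hochberg adjustment, and 3 against 3 libraries cannot give a p below 0.1. The 15 infarct libraries averaged 48.62%, or -5.78 percentage points against sham (two-sided exact permutation test, p = 0.326, smallest possible 0.001225). That difference was -0.0225 without sham replicate 2 and -10.79 without sham replicate 3, and the signs at 24 h and 72 h turned without one or other of these libraries.

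**Figure D1:**
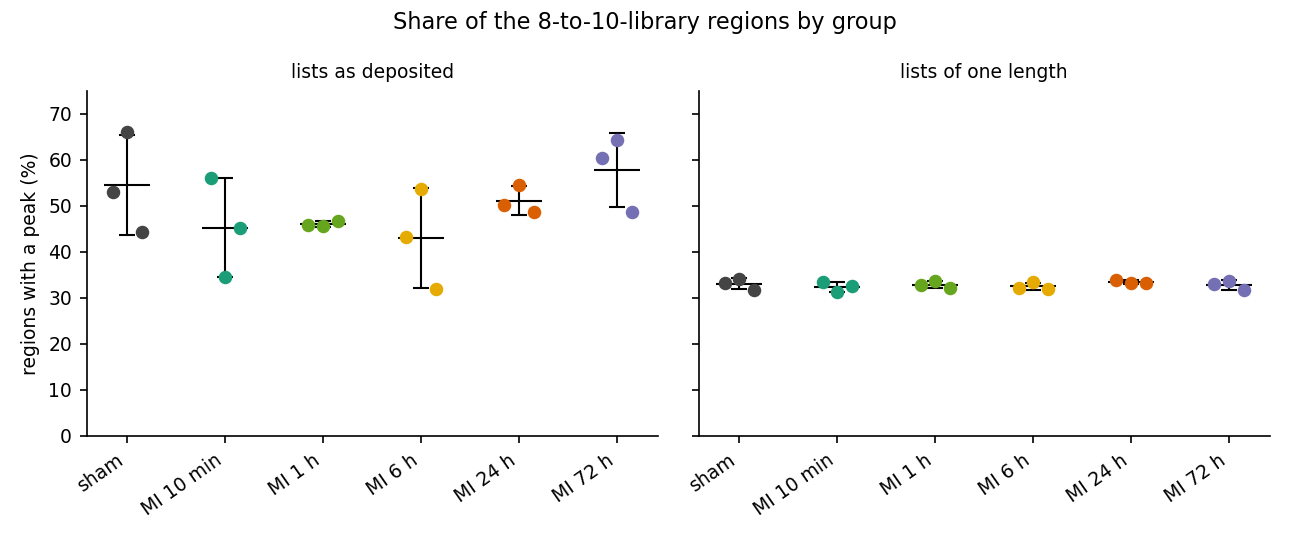
Percentage of the 13183 intermediate regions with a peak in each library (points), with the mean and SD of each group of 3, for the lists as deposited (left) and for the 34255 highest-scoring peaks of each list (right). The libraries spread from 31.87% to 65.90% on the left and from 31.28% to 34.04% on the right, and the groups overlap in both.

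The share followed the length of the peak list. The lists held 34255 to 60653 peaks, and the library with the shortest list, 6 h replicate 3, had the lowest share. The library with the longest, 72 h replicate 2, had 64.25%, and sham replicate 2, with the next longest (60130 peaks), had the highest. Over the 18 libraries Pearson's r between share and number of peaks was 0.9895 and Spearman's rho 0.9814 (permutation p = 1e-05 for both, the smallest that 100000 relabelings can give; adjusted over 4 relations 4e-05). Without the 2 libraries farthest from the median, r was 0.9840. Against the number of peaks outside the intermediate regions, which shares no peak with the measure, r was 0.9850. A straight line through the 18 points rose by 1.24 percentage points per 1000 peaks and left residuals with an SD of 1.33 points. The 72 h libraries all lay below that line, by 1.11 to 2.95 points, and no other group had all 3 libraries below it. With the group tested beside list length, the share of the remaining variance between groups was 0.571 (permutation test, p = 0.0513). When every list was limited to its 34255 highest-scoring peaks, all libraries fell between 31.28% and 34.04%. The group means were then 33.02% ± 1.18 (SD, n = 3) in sham and, in order of time, 32.39% ± 1.03, 32.87% ± 0.769, 32.45% ± 0.770, 33.46% ± 0.429 and 32.76% ± 1.04 (share of variance between groups 0.191, permutation p = 0.718).

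The share was also related to the width of the narrowest peaks, which itself moved with list length. Narrow-peak width, the 5th percentile of peak width in a list, ran from 477 bases in 72 h replicate 1 to 673.2 bases in 10 min replicate 2. Its correlation with the share was r = -0.704 (permutation p = 0.00115, adjusted 0.00196) and rho = -0.606 (permutation p = 0.00914, adjusted 0.00914). Without 10 min replicate 2 and 6 h replicate 3, r was -0.442 and no longer passed the test (permutation p = 0.0871). Width and number of peaks were themselves related (r = -0.681, permutation p = 0.00206; rho = -0.516, p = 0.0306 by the same test). With list length taken out of both by a straight line, r between share and width was -0.289 (permutation p = 0.244). With lists of one length it was -0.722 (permutation p = 0.00056), with the width still that of the full lists. That share still followed the number of peaks in the full lists (r = 0.651, permutation p = 0.00319). Cutting the lists therefore did not take list length out, and width and list length were not told apart this way. The labels give no sequencing date or run for these libraries, so no batch could be split out, and read depth was not used here.

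**Figure D2:**
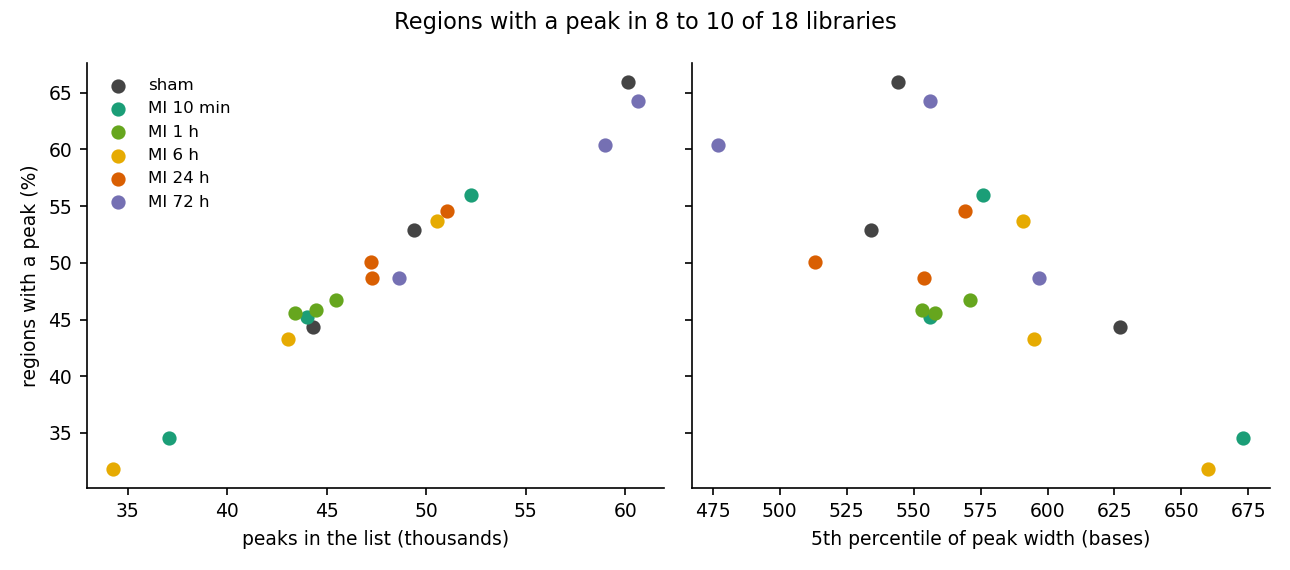
Percentage of intermediate regions with a peak in each of 18 libraries (points, coloured by group) against the number of peaks in its list, in units of 1000 (left) and against the 5th percentile of peak width in bases (right). The points lie close to a rising line on the left (r = 0.9895) and scatter around a falling one on the right (r = -0.704).

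Which regions a library held was examined apart from how many. For each pair of libraries the phi coefficient, a correlation of presence over the 13183 regions, was taken. Presence in 8 to 10 of 18 libraries pushes it below 0, to -0.0588 if presence were even. The 153 pairs ran from -0.135 to 0.0484, and 11 were above 0. The highest pair was sham replicate 2 with 72 h replicate 2, which have the longest lists. Pairs within a group averaged -0.0374 ± 0.0291 (SD, 18 pairs) and pairs between groups -0.0515 ± 0.0326 (135 pairs). The difference of 0.0142 did not pass a one-sided permutation test (p = 0.0618). It gave p = 0.0120 without sham replicate 2, 0.0462 without sham replicate 1, 0.0434 without sham replicate 3 and 0.0465 without 1 h replicate 3 in the same permutation test. Without 72 h replicate 1 it was 0.00729 (permutation p = 0.185). The mean within groups was lowest in sham (-0.0651) and highest at 72 h (-0.0160).

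**Figure D3:**
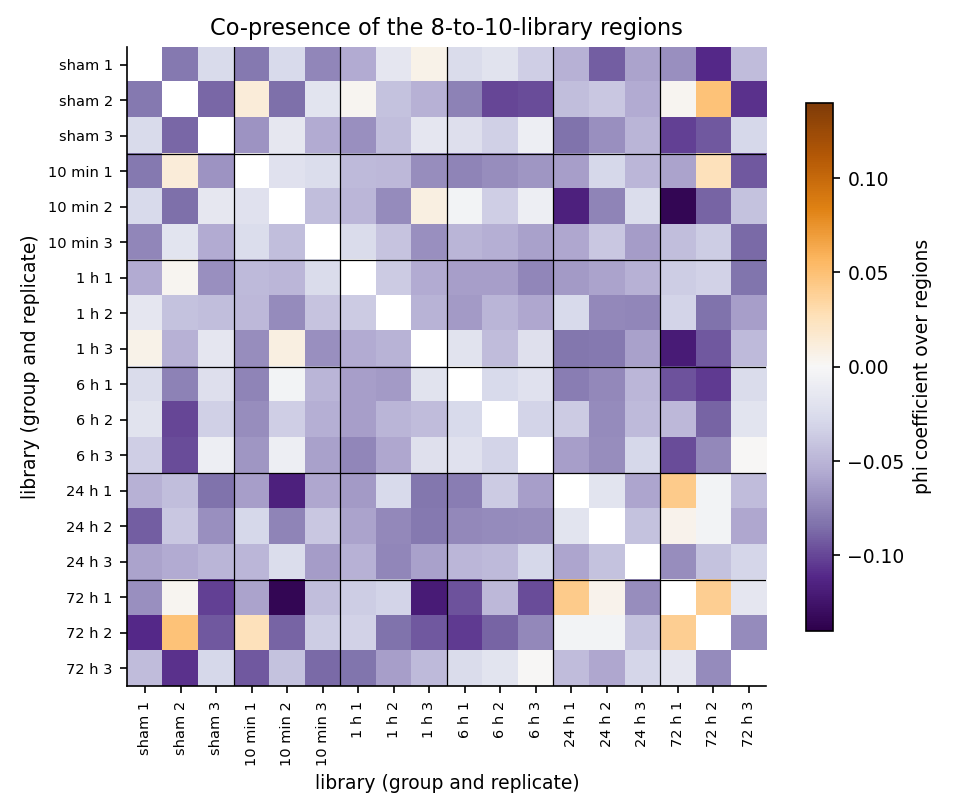
Phi coefficient of presence over the intermediate regions for each pair of the 18 libraries, with groups separated by lines and the diagonal left blank; orange is above 0 and purple below. Values run from -0.135 to 0.0484, and the highest are not confined to the blocks of one group on the diagonal.

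The first principal component of presence held 8.26% of the variance, against an even share of 5.88%. Its loading was related to the number of peaks (r = 0.685, permutation p = 0.00147, adjusted 0.00196; rho = 0.637, permutation p = 0.00521, adjusted 0.00879; r = 0.623 without the 2 farthest libraries). It was related as closely to narrow-peak width (r = -0.651, permutation p = 0.00259, adjusted 0.00259; rho = -0.625, permutation p = 0.00659, adjusted 0.00879; r = -0.623 without the 2 farthest). Groups accounted for 0.350 of the variance of the loading (permutation p = 0.340). With list length taken out by a straight line, r between loading and width was -0.347 (permutation p = 0.158), and with lists of one length it was -0.756 (permutation p = 0.00021).

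The spread of single regions over the groups was then counted. Of the 13183 regions, 5537 (42.00%) had a peak in at least 1 library of all 6 groups, and 3313 (25.13%) in 1 or 2 of 3 libraries of every group. A further 6285 had a peak in 5 groups and 1361 in 4 or fewer. The rule sets how many libraries hold a region, so its peaks must fall in several groups whatever the effect of group. These counts were not set against all autosomal regions or against peaks placed at random, and nothing about group is read from them. To be whole or empty in every group (3 of 3 or 0 of 3 libraries each time), a region needs a multiple of 3 libraries. Under the rule only the 4364 regions of 9 libraries could show this, and 2 did. The first (chr14:18303950-18305194) lies in Ube2e1, a ubiquitin-conjugating enzyme gene, and overlaps the long noncoding RNA gene Gm41098. Its scores were 91.75, 50.65 and 52.56 in sham, 73.09, 91.55 and 74.95 at 10 min, and 73.60, 73.63 and 67.69 at 72 h, and it had no peak at 1 h, 6 h or 24 h. The other (chr5:76061578-76062652) lies 1316 bases from the pseudogene Gm6051. It scored 53.43, 56.60 and 90 in sham, 57.69, 74.08 and 63.14 at 1 h, and 52.22, 57.60 and 68.66 at 24 h, with no peak in the remaining 9 libraries. Neither sequence of groups is one of rising or falling time.

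A region was counted as gained at a time point when 3 of 3 infarct libraries listed it and 0 of 3 sham libraries did, and as lost in the opposite case. All 5 counts share the same sham libraries. For a single region 3 against 3 libraries cannot give a p below 0.1, so these are counts with no test. At 10 min 125 intermediate regions were gained and 387 lost, beside 0.218% and 0.627% of all 148111 autosomal regions. At 1 h the counts were 113 gained and 318 lost, beside 0.223% and 0.550% of all regions. At 6 h they were 93 gained and 410 lost, beside 0.203% and 0.707%. At 24 h they were 200 gained and 301 lost, beside 0.394% and 0.524%. At 72 h they were 276 gained and 224 lost, beside 0.724% and 0.401%. As shares of the intermediate regions these are 0.706% to 2.09% gained and 1.70% to 3.11% lost. A region with peaks in few or nearly all libraries has little room for a 3 of 3 against 0 of 3 split, so the rule bears on these shares and nothing is read from their difference from the background.

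The balance of gained and lost regions moved with list length too. With lists of one length the 10 min comparison gave 154 gained and 156 lost. The later comparisons gave, in order of time, 111 gained against 121 lost, 111 against 140, 183 against 136 and 170 against 146. The excess of lost regions at 10 min and at 1 h shrank to 2 and 10 regions, and at 24 h the balance turned. The intermediate regions also held 880 with no sham peak and 1725 with a peak in 3 of 3 sham libraries, of which 166 and 439 lay at the ends of what the rule allows (10 and 5 of 15 infarct libraries).

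**Figure D4:**
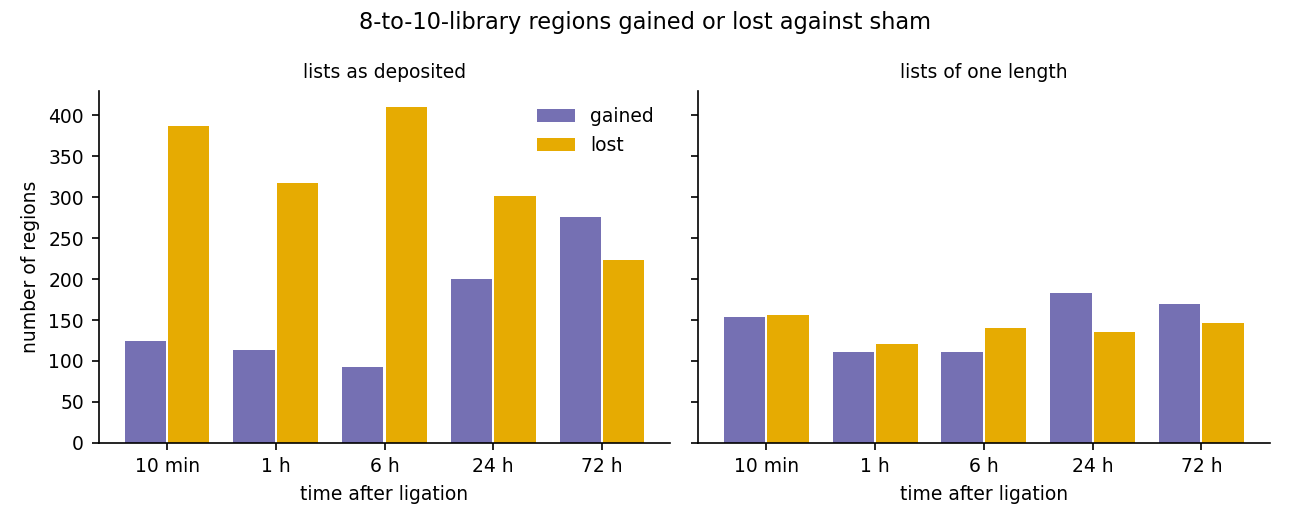
Number of intermediate regions gained (3 of 3 infarct libraries, 0 of 3 sham) and lost (the opposite) at each time after ligation, for the lists as deposited (left) and for lists of one length (right). Lost regions outnumber gained ones up to 24 h on the left, from 387 against 125 at 10 min to 301 against 200 at 24 h, and the counts lie between 111 and 183 on the right.

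The gained and lost regions with the highest scores at each time were chosen by a fixed rule. They overlapped a gene or lay up to 96891 bases from the nearest one, and whether these genes share a role was not tested. At 72 h the leading gained region (chr5:149286581-149288304) lies in Alox5ap, which encodes the 5-lipoxygenase activating protein of leukotriene synthesis and is a gene of white blood cells. Its scores were 171.8, 81.21 and 136.7 in the 72 h libraries, 62.72, 115.3 and 69.35 in the 24 h libraries, 62.26 and 53.61 in 6 h replicates 2 and 3, and 56.29 in 1 h replicate 3. No sham or 10 min library had a peak there, and every 24 h and 72 h library did. When a peak had to cover 50% of the region, 2 of 3 libraries at 72 h were left. The other leading region gained at 72 h (chr12:87756261-87757924) lies 2066 bases from the pseudogene Gm21937 and scored 128.5 ± 35.25 (SD, n = 3) at 72 h. At 24 h the leading gained regions lay 37635 bases from Gmds (chr13:32375912-32376882; 118.5 ± 11.76, n = 3) and in Aplp2 (chr9:31190083-31191233), a relative of the amyloid precursor protein gene, with 90.50, 152.3 and 102.1 at 24 h. The Aplp2 region was also found in 7 libraries of the 4 other infarct groups, and 1 of 3 libraries at 24 h covered 50% of it.

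Among lost regions, the leading 2 at 24 h were in Spocd1 and Mcu. The Spocd1 region (chr4:129956948-129958919) had the highest mean score of all intermediate regions, 220.1 ± 107.8 (SD, n = 10 libraries). Spocd1 is known for a role in piRNA-directed DNA methylation of transposons in male germ cells. Its region scored 104.0, 76.25 and 245.7 in sham, 269.8 in 10 min replicate 2, 130.6 in 1 h replicate 3, 409.4, 228.3 and 254.2 at 6 h, and 138.2 and 344.7 in 72 h replicates 2 and 3. It was listed in 10 libraries, 5 of which covered 50% of it, and not in the other 8. These were all 3 at 24 h, 10 min replicates 1 and 3, 1 h replicates 1 and 2, and 72 h replicate 1. Absence was therefore not particular to 24 h. With 50% coverage 2 of 3 sham libraries were left. Mcu encodes the pore of the mitochondrial calcium uniporter, through which calcium enters mitochondria of heart muscle cells. Its region (chr10:59489872-59491938) scored 142.0, 111.3 and 113.8 in sham, 112.1 and 56.42 in 10 min replicates 1 and 3, 106.5 in 1 h replicate 3, 58.05 and 52.66 in 6 h replicates 1 and 2, and 123.4 and 159.1 in 72 h replicates 1 and 2. A region shared by Macrod1 and Flrt1 (chr19:7137641-7139150) was a leading lost region at both 10 min and 72 h. It scored 116.0, 129.9 and 91 in sham, 84.22, 65.50 and 82.42 at 1 h, 64.72 and 100.7 in 6 h replicates 1 and 2, and 62.84 in 24 h replicate 3. Lost at 72 h together with it was a region in Adamts20 (chr15:94267674-94269276), a secreted protease gene, which scored 113.5 ± 43.95 in sham (n = 3) and was covered to 50% in 1 of 3 sham libraries.

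The leading regions of the earlier times follow with their mean scores. Gained at 10 min were regions 8797 bases from Elk4 (105.2 ± 24.19, SD, n = 3, in that group) and 3780 bases from the small nuclear RNA gene Gm22977 (102.2 ± 38.33). Gained at 1 h were regions 96891 bases from Gm4921 (112.6 ± 19.48) and 1049 bases from 1700027F06Rik (104.8 ± 31.19), the latter covered to 50% in 0 of 3 libraries at 1 h. Gained at 6 h were regions in the pseudogene Gm13503 (108.1 ± 36.42) and in Cep290, a gene of the primary cilium (102.6 ± 48.19). The Cep290 region (chr10:100497215-100498305) was found in 3 of 3 libraries at 24 h too. Lost at 10 min beside Macrod1 was a region 803 bases from Gm18630 (117.9 ± 67.89 in sham). It kept 2 of 3 sham libraries, and was no longer called, with lists of one length, a score of at least 60 or 50% coverage. Lost at 1 h were regions in Phc1, a Polycomb gene (107.4 ± 26.82), and 1245 bases from Gm11997 (105.2 ± 35.60), and lost at 6 h were regions 5462 bases from Gm25919 (114.5 ± 52.77) and in Tacr3, the neurokinin 3 receptor gene (102.9 ± 38.33). Apart from Spocd1, the highest mean scores were those of regions 63650 bases from Fam171a1 (178.9 ± 79.56, n = 9), in Sfi1 (167.3 ± 115.9, n = 8), 271082 bases from Gm12128 (128.4 ± 30.04, n = 8) and in Kif15 (121.3 ± 22.20, n = 10). The Sfi1 region was 6396 bases wide. The regions in Spocd1 and near Fam171a1 and Gm12128 were listed in many of the same libraries across groups. All were in sham replicate 3, 10 min replicate 2, 1 h replicate 3, 72 h replicate 3 and all 3 libraries at 6 h. The regions in Sfi1 and Kif15 did not share this set, and its source was not tested.

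Lists of heart, injury and methylation genes were then examined. Of 147 autosomal genes on 9 lists, 39 held or lay within 2000 bases of 72 intermediate regions, and of all 20665 autosomal protein-coding genes 4996 did (24.18%). Among the contractile genes it was 6 of 20, among calcium cycling genes 6 of 15 and among cardiac transcription factors 2 of 15. The median gene length was 250.8 kb on the calcium list and 19.58 kb on the contractile list, against 17.49 kb over all protein-coding genes, and longer genes have more room for regions.

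In the contractile apparatus Ttn, the giant elastic protein of the sarcomere, held 4 regions, Actn2, the Z-disc crosslinker, 3, and Mybpc3, the thick filament regulator, 2. Csrp3, Ldb3 and Nebl, genes of the Z-disc, had 1 each. The mean scores of these 12 regions lay between 62.30 (Mybpc3) and 78.39 (Ldb3). Each of the 4 Ttn regions had 2 or 3 of 3 libraries at 72 h and 1 or 2 of 3 in sham. Most intermediate regions were alike in each respect. At 72 h 5749 of the 13183 were in 2 and 2399 in 3 of 3 libraries, and in sham 4818 were in 1 and 5760 in 2. None of the 12 was gained or lost at any time.

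Calcium cycling genes carried 24 regions. Itpr2, an inositol trisphosphate receptor that releases stored calcium, held 12 in 394.0 kb, and no protein-coding gene held more. Dlgap2 and Prkg1 held 11 each, and Camta1, Cdh13, Grip1 and Tenm3 held 10 each. That is 30.46 per Mb of Itpr2, against 6.79 per Mb over all protein-coding genes. Itpr2 was named for its count, so a density above the mean was fixed in advance. Rec114 (41.21 per Mb) and St3gal3 (39.44 per Mb) were denser, and Itpr2 held 49 regions of any kind. The 12 Itpr2 regions spread over the gene from position 146158524 to 146450793 of chromosome 6, with mean scores of 61.17 to 71.13. One of them (chr6:146273139-146274620) had no peak in sham and scored 84.50, 70.21 and 70.37 at 72 h. It was the single region at a list gene that was gained at 72 h, and none was gained at any other time. Cacna1c, the pore of the cardiac L-type calcium channel, held 5 regions, and Ryr2, the calcium release channel of the sarcoplasmic reticulum, 4. At Cacna1c, the region chr6:118711511-118714042 scored 64.69, 57.75 and 61.74 in sham and was not listed at 6 h, as was the region chr6:118829322-118830599, which scored 52.68, 66.60 and 65.69 in sham. Another (chr6:118976163-118977473) scored 66.92, 108.5 and 51.16 in sham, 68.88, 83.76 and 50.70 at 72 h, and was not listed at 10 min. One Ryr2 region (chr13:11726618-11727328) had the highest mean score on the list, 101.4 ± 35.21 (SD, n = 9 libraries), and each group had 1 or 2 libraries with it.

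Jph2, whose protein ties the sarcoplasmic reticulum to the cell membrane, was the only list gene whose intermediate region touched its start window. The region (chr2:163396393-163397924) overlapped the window by 1 base. It scored 52.51, 52.76 and 55.46 in sham, 112.0, 101.2 and 88.75 at 72 h, 77.12 in 6 h replicate 3 and 95.13 in 24 h replicate 3, and was not listed at 10 min or 1 h. The sham peaks were close to the lowest listed score, and all 3 fell out under a threshold of 60.

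Kcnq1, Kcnh2 and Kcnd3, potassium channels of repolarization, held 1 region each. The Kcnq1 region (chr7:143328045-143329259) had no sham peak and 1 or 2 peaks in every infarct group, with scores from 59.35 to 119.2. Of the transcription factors, Mef2a had a region (chr7:67232423-67233743) that scored 56.89, 63.80 and 90.32 in sham and 95.95, 63.66 and 52.26 at 6 h, and was not listed at 10 min or 1 h. The Tbx5 region (chr5:119812965-119814385) was listed in 3 of 3 sham libraries and in none at 1 h, and its mean score was 61.89 ± 9.29 (SD, n = 8 libraries).

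Of 20 inflammatory genes 5 had an intermediate region: Il1r1, Il1r2, Nfkb1, Sele and Selp. The Nfkb1 region was in 3 of 3 sham libraries and none at 1 h, and the others were split within sham. Of 20 leukocyte genes only Fcgr1 did, with a region found in 1 sham library and 3 of 3 at 72 h. Matrix and fibrosis genes had the largest share on any list (8 of 19, or 42.11%), with Tgfb2 holding 3 regions and Col5a1 and Fn1 holding 2 each. The share over all protein-coding genes was 24.18%, and no test was made of the difference. The median gene length was 31.77 kb on this list, against 17.49 kb over all protein-coding genes. A Tgfb2 region (chr1:186631773-186633195) and the Col6a1 region (chr10:76726848-76728242) were in 3 of 3 sham libraries and in none at 72 h, and the Col6a1 region was also in none at 6 h. The Tnc region (chr4:64016654-64018432), at the gene for tenascin C of injured tissue, scored 150.7, 77.85 and 74.26 at 72 h, 112.2 and 77.10 in sham replicates 1 and 3, and 62.90 to 122.5 in the other 5 libraries that listed it. Hypoxia and glycolysis genes with a region were Hk2, Ldha, Egln1 and Egln3 (4 of 14). Of the methylation machinery, Tet1 and Tet2, which oxidize methylcytosine, held 3 regions each and Mbd3 had 1 (3 of 12 genes), with mean scores from 69.16 to 85.93. In bulk tissue a change in the share of cells of a type and a change within cells cannot be told apart. Of the 72 regions on the 9 lists, 1 was gained at 72 h and none at the other times, where 2.09% of all intermediate regions and 0.724% of all autosomal regions were gained at 72 h. Lost were 3, 4, 3, 0 and 2 in order of time, where 2.94%, 2.41%, 3.11%, 2.28% and 1.70% of all intermediate regions and 0.401% to 0.707% of all autosomal regions were lost.

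Position relative to genes is not used by the rule. The midpoint fell inside a gene of any kind in 7894 intermediate regions (59.88%), inside a protein-coding gene in 6682 (50.69%) and only inside a long noncoding RNA gene in 963 (7.31%). Another 609 (4.62%) lay within 2000 bases of a gene end and 4680 (35.50%) farther away. The share inside a gene was 59.71% for regions of 1 library, 58.96% for all autosomal regions and 44.28% for regions found in all 18 libraries. Regions share libraries and lie beside each other, so they are not replicates and no test was made of these shares. The share of its intermediate regions that lay inside a gene ran from 58.48% in 6 h replicate 2 to 61.29% in 72 h replicate 1, and groups accounted for 0.366 of that variance (permutation p = 0.304, adjusted over 3 measures 0.457).

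Promoter windows were touched by 290 of 12645 intermediate regions (2.29%), counted on the chromosomes the promoter table covers. The same share was 2.45% for regions of all 18 libraries, 1.31% for those of 1 library and 1.79% for all autosomal regions, and wider regions touch more. The 323 windows touched had a median of 6 CpGs (middle 50% 4 to 10), and 13.00% held 15 or more, against a median of 7 (3 to 21) and 35.21% of all 31396 windows. At least 1 CpG, searched as the letters CG, which read the same on both strands, was in 97.52% of the touched windows and in 94.75% of all windows. The windows with most CpGs were those of Csrnp2 (29), Rad51c (29, at a second annotated start) and Dmrtb1 (28). The Csrnp2 region reached only 25 bases into its window.

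**Figure D5:**
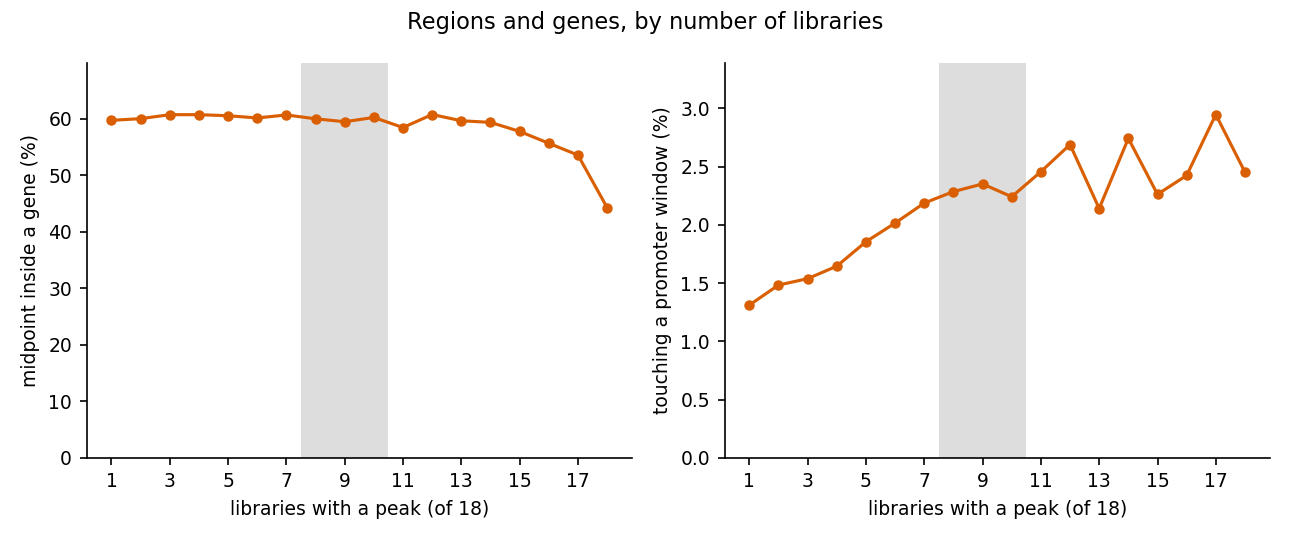
Percentage of autosomal regions with the midpoint inside a gene (left) and touching a promoter window of 300 bases (right), by the number of libraries with a peak; the shaded band marks 8 to 10 libraries. Inside-gene shares stay between 57.75% and 60.74% up to 15 libraries and reach 44.28% at 18, and promoter shares lie at 1.31% for 1 library and between 2.24% and 2.35% in the band.

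By chromosome, intermediate regions made up 8.05% (chromosome 9) to 9.83% (chromosome 18) of autosomal regions. The median distance from an intermediate region to the next region of any kind was 4757 bases, against 4439 bases over all autosomal regions, and 13.20% had a neighbour within 1000 bases (13.98% over all).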

How the data were processed

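MeDIP-seq peaks were called by the authors on each of the 18 libraries separately. Per the submitters' processing notes the tools include Bowtie2 and MACS2 and the build mm10; versions, options and use of an input library are not given in the sources used here. The deposited peak score is the authors' value, on a scale they do not state. Peak starts and ends are printed as deposited, counted from 1. Read depth is unknown, so no counting interval is given. Peaks were merged at 1 shared base (numpy 2.4.6, pandas 2.3.3). Genes, promoter windows and microRNAs came from RefSeq tables of GRCm38.p6, and promoter windows on chromosome 18 were not analysed here. Tests were permutations over libraries (scipy 1.17.1), checked on simulated data, with Benjamini-Hochberg adjustment. P-values of group comparisons rest on the spread between 3 mice per group. Those of correlations come from relabeling all 18 libraries without regard to group. Named regions are those whole or empty in every group, the leading 2 gained and lost per time, the 5 with the highest mean score, the 5 genes holding most (ties included), members at starts of list genes and the 3 starts with most CpGs; the other list genes and germline starts were chosen after their values were seen. The rule for regions and the gene lists were chosen with earlier results of these data known. Alternatives were lists of one length, a score of at least 60, 50% coverage, leaving out libraries, and other region and gene definitions. Replicate numbers are not known to pair the libraries. Deviations from the group means correlated at -0.0822 to 0.0885 over the 45 same-numbered pairs. Their mean was 0.000172, against -8.7e-05 for pairs of other numbers. None passed 0.1, a bar that the rule for regions makes hard to reach, so the check cannot exclude pairing. Some genes that the naming rule or the lists select are not reported here.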

Additional observations from a re-analysis of the deposited data

Results flagged for a closer look

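The first-component loading of presence averaged 0.153 at 24 h and -0.212 at 6 h, against a sham mean of -0.0881. All 3 libraries at 24 h lay above the sham mean and all 3 at 6 h below it, a gap of 0.365 between the groups. The difference was not tested, 6 measures were looked at in this way, and the sham libraries themselves ran from -0.277 to 0.273. The loading followed the number of peaks (r = 0.685).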

How the results depend on the processing

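Of 164 alternative values, 137 were classed as unchanged, 14 as moved, 4 as reversed, 5 as stronger and 4 as weaker. For tests unchanged meant the same direction and side of the threshold. For gained and lost counts and the share inside genes it meant a value within a set range of the main one. Comparisons of a time point with sham cannot give a p below 0.1, so only their direction could change. A share of variance has no direction to change. The class was thus partly fixed in advance, and the count of 137 does not measure robustness. With lists of one length the difference from sham was 0.443 points at 24 h and -0.258 at 72 h, both of the opposite sign. Lost regions fell to 156, 121, 140, 136 and 146 from 10 min to 72 h, and 170 were gained at 72 h. With scores of at least 60, lost regions numbered 229, 195, 221, 193 and 132, and gained ones 64 at 1 h and 57 at 6 h. Any overlap in place of the midpoint put 61.69% inside a gene. Leaving out 1 library gave differences from sham of -14.50 to -3.39 (10 min), -13.35 to -2.58 (1 h), -16.84 to -5.72 (6 h), -8.29 to 2.47 (24 h, reversed without sham replicate 2), -1.66 to 9.10 (72 h, reversed without sham replicate 3) and -10.79 to -0.0225 (all infarct libraries), group shares of variance of 0.300 to 0.492, and differences in co-presence, within minus between groups, of 0.00729 to 0.0211. The replicate block left that difference at 0.0142 with p = 0.0449 (permutation test) and gave 0.461 (permutation p = 0.201) for the group share; the numbers are not known to pair the libraries. Width relations weakened to -0.442 for the share without the 2 farthest libraries, to -0.289 (share) and -0.347 (loading) as residuals on list length, and to -0.457 for the loading with the lowest peak width. With lists of one length they did not weaken, at -0.722 (share) and -0.756 (loading), though that share still followed the number of peaks in the full lists. The residuals and the count of peaks outside the regions were chosen after seeing the data. Of 20 named gained and lost regions, 12 no longer split 3 of 3 against 0 of 3 when a peak had to cover 50% of the region. Beside those given above, these were the regions near Gmds, Gm21937 and Gm25919, in Cep290, and at Macrod1 and Flrt1. Each of these kept 2 of 3 libraries, and the Macrod1 and Flrt1 region counts at both 10 min and 72 h. The region near Gm18630 also did not split so with lists of one length or scores of at least 60. None reversed. The cause was not tested. Read depth is unknown, so absence of a peak means only that none was listed.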
